A study of Mus musculus with 12 samples.

Results

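Transcripts of Bim and of 7 relatives in the Bcl2 family were followed in thymocytes with a transgenic T cell receptor, cultured for 6 days in reaggregate thymic organ culture (RTOC), where they grow in clumps with cells of the thymic stroma. The members were the genes Bcl2l11 (Bim), Bcl2, Bcl2l1 (Bcl-xL), Mcl1, Bak1, Bax, Bad and Bid. All probe sets that the platform's annotation gives the symbol of a member were taken, 13 of the 12422 on the array that are no controls. They belong to 7 of the 8 genes, with 3 probe sets each for Bcl2l11 and Bcl2, 2 each for Bcl2l1 and Bad, and 1 each for Mcl1, Bak1 and Bid. No probe set is listed under Bax, which is not analysed here. The family was selected on the difference of Bcl2l11 between the 2 doses of peptide described next, where its brightest probe set was higher at the higher dose and a dimmer probe set was lower.

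Expression was measured on 12 Affymetrix mouse arrays in 3 groups of 4, numbered 1 to 4 in the sample titles. The OT1 group held thymocytes with the OT1 receptor, which reads an ovalbumin peptide on a class I molecule, and its label names no peptide. The HY_low and HY_high groups held thymocytes with the HY receptor, which reads a male peptide on a class I molecule, cultured with Smcy peptide at 1e-07 M and at 1e-05 M. HY_high and HY_low also carry different letters in their titles, aa and ab, which are not explained, so dose cannot be told apart from what these mark, and in comparisons with OT1 receptor and peptide changed together. The age, strain and sex of the mice, any sorting of the cells, and whether arrays came from separate cultures are not given in the labels, so p-values measure the spread between these arrays, which may be technical.

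Proteins of the Bcl2 family decide whether a cell's mitochondria release cytochrome c and start the caspases. Bcl2, Bcl2l1 and Mcl1 hold cells alive, Bax and Bak1 form the pores in the outer mitochondrial membrane, and Bim, Bad and Bid are BH3-only proteins that bind the survival proteins or activate Bax and Bak1. In the thymus Bim is the member best known for the death of thymocytes whose receptor binds self peptide strongly, double-positive thymocytes depend on Bcl2l1 and Mcl1, and Bcl2 is found at higher levels in mature thymocytes. Forkhead transcription factors of the FoxO group are known activators of the Bim gene.

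The sequence just before the first annotated start of Bcl2l11 is shown because the brightest probe set of this gene set HY_high apart from the other groups. Its dimmer probe sets did not separate the groups, and OT1 and HY_low overlapped on all of them. The difference between the doses had also led to the choice of the family. Of 12 windows, from the 8 member genes, this was also the only window with the letters GTAAACA on either strand (reverse complement TGTTTAC). These letters are a core of forkhead sites. The 250 bases lie at chr2:128125788-128126037 on the plus strand of GRCm38.p6, from RefSeq, and the capitals mark the motif, which begins 227 bases before the start.

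Bcl2l11 upstream window: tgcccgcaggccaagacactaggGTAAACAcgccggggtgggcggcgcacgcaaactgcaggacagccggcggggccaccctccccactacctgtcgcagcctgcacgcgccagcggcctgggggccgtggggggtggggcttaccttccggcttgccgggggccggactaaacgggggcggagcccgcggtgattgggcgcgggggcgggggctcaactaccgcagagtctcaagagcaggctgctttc

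The same letters were found in 3.17% of the 32851 windows of this length before RefSeq starts. The window before the other annotated start of Bcl2l11 did not hold them. A match of letters is a description of the sequence, and no binding was measured here.

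The values are deposited intensities on a linear scale, with a lowest value of 1, and were tested as log2. Median intensity per array ran from 3.33 to 3.97. Values of 1 made up 8.48% to 8.78% of probe sets on the arrays numbered 1, 3% to 19.0% on those numbered 2, 21.3% to 22.5% on those numbered 3 and 20.8% to 22.4% on those numbered 4. The Gapdh control probe sets gave a 3' over 5' log2 ratio, a measure of RNA quality, that averaged 4.62 in OT1, 4.80 in HY_low and 4.55 in HY_high. On all 12 arrays it was far above 0, at 2.95 to 6.26, so the 5' probe set read much lower than the 3' probe set. The ratio followed the number more than the group, with 5.60 to 6.26 on arrays numbered 2 and 2.95 to 3.27 on those numbered 4. Its part in the disagreement of probe sets of the same gene was not tested. The number of arrays limits the precision of all values below.

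On its brightest probe set, 100988_at, Bcl2l11 had similar geometric means in OT1 and HY_low and a higher one in HY_high. On OT1 arrays 1 to 4 its intensity was 21.6, 38.7, 35.96 and 34.8. On HY_low arrays 1 to 4 it was 20.5, 26.1, 40.9 and 40.6. On HY_high arrays 1 to 4 it was 69.0, 134, 71.4 and 87.9. Each HY_high array lay above every array of the other groups, which overlapped one another fully. The geometric means of OT1, HY_low and HY_high were 31.97, 30.7 and 87.2, and no array was below 20.5, so none of these values lay near the bottom of the scale.

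Between the doses the level of 100988_at was 2.84-fold higher in HY_high (log2 difference 1.51 ± 0.40 SE, n = 4 per group). Within the numbers 1 to 4 the log2 difference was 1.75, 2.36, 0.80 and 1.11. This is the contrast the family was chosen by, so it is given as a description. The probe set passed there with a block for the replicate number, and did not pass without the block or with the block and no arrays numbered 2. These values led to the choice, so passing there is no support.

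Against OT1, HY_high was 2.73-fold higher on 100988_at (log2 difference 1.45 ± 0.40 SE, n = 4 per group, 95% interval 0.59 to 2.30). By limma over 8695 probe sets the adjusted p was 0.346, which misses the threshold of 0.05. With a block for the replicate number it was 0.00602. The difference was above 0 within 4 of 4 numbers, at 1.68, 1.79, 0.99 and 1.34. By p this probe set was at rank 58 of the 8695 without the block and at rank 40 with it. The 4 HY_high arrays are those of the contrast that led to the choice, so this is not separate support for it. Leaving out any 1 of the 12 arrays from the block fit kept the call, with log2 differences of 1.25 to 1.64 and adjusted p from 0.00368 to 0.0445, the highest without HY_high array 2.

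HY_low and OT1 did not differ on 100988_at beyond their spread. The log2 difference was -0.06 ± 0.40 SE (n = 4 per group, limma adjusted p = 1), with a 95% interval of -0.91 to 0.80. Within the numbers it was above 0 in 2 and below 0 in 2, so the interval still allows a change of either sign.

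**Figure D1:**
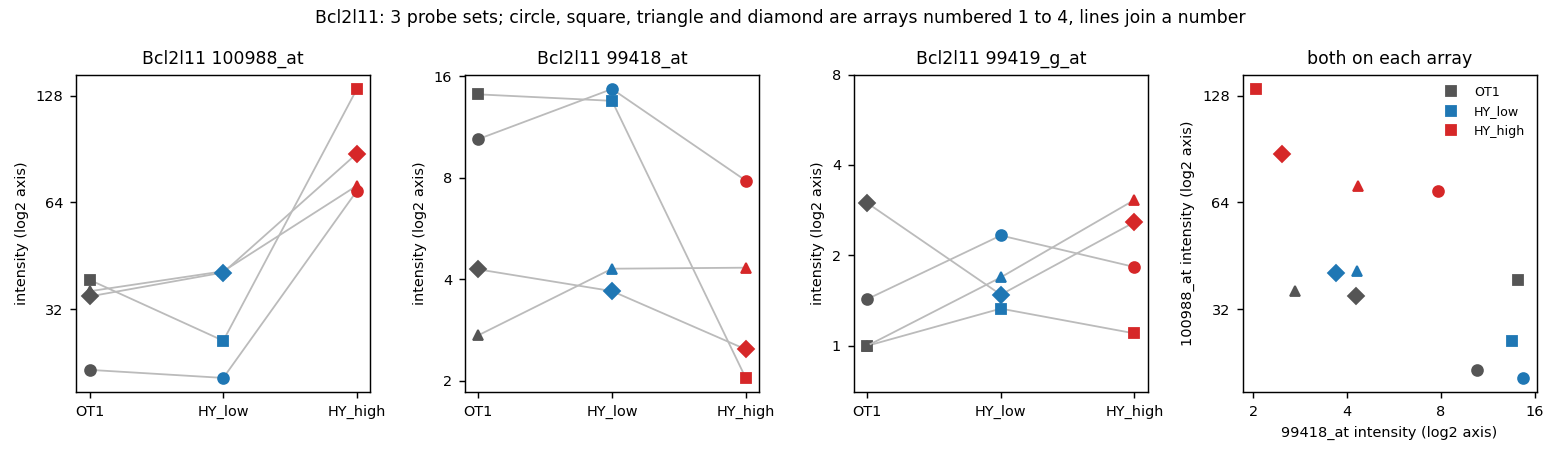
Intensity of the 3 Bcl2l11 probe sets (log2 axis) in the 3 groups of 4 arrays, with lines joining arrays of one number, and the brightest probe set plotted against 99418_at on each of the 12 arrays. On 100988_at the HY_high arrays sit at 69.0 and above and all others at 40.9 and below, while the groups overlap on 99418_at and 99419_g_at stays at 3.06 or less.

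The other Bcl2l11 probe sets did not show the same order. The annotation ties 99418_at and 99419_g_at to one sequence record and 100988_at to another, and their probe sequences were not used here. On 99418_at OT1 arrays 1 to 4 were at 10.4, 14.1, 2.73 and 4.28. HY_low arrays were at 14.7, 13.5, 4.30 and 3.69, and HY_high arrays at 7.85, 2.04, 4.33 and 2.48. The groups overlapped, and in OT1 and HY_low the arrays numbered 1 and 2 were higher than those numbered 3 and 4. The share of probe sets at 1 was 20.8% to 22.5% on the arrays numbered 3 and 4 and 3% to 19.0% on the others. Among arrays numbered 2 this share was largest for OT1 (19.0%), with 5.17% for HY_low and 3% for HY_high. Of these same arrays OT1 read highest on 99418_at (14.1), HY_low next (13.5) and HY_high lowest (2.04). The part of the share in the values of 99418_at was not tested.

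The geometric means of 99418_at were 6.44, 7.49 and 3.62 in OT1, HY_low and HY_high. HY_high minus OT1 gave a log2 difference of -0.83 ± 0.64 SE (limma adjusted p = 0.9999, block adjusted p = 0.549), at -0.41, -2.79, 0.67 and -0.79 within numbers 1 to 4. It moved to -0.45 without OT1 array 2, to -0.30 with intensities under 8 set to 8, to -0.35 with a pseudocount of 8, to -0.43 with array weights and to -0.18 with the block and no arrays numbered 2. HY_high minus HY_low gave -1.05 ± 0.64 as a description, with -2.73 within number 2 and 0.01 within number 3, and -0.41 with intensities under 8 set to 8. HY_low minus OT1 gave 0.22 ± 0.64 (limma adjusted p = 1). No difference of 99418_at from OT1 passed, and its sign is given as a description only.

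The difference between the 2 probe sets was measured within each array. From OT1 to HY_high the log2 ratio of 100988_at to 99418_at was larger by 2.28, and within numbers 1 to 4 by 2.08, 4.58, 0.32 and 2.13, the most within number 2. From OT1 to HY_low it differed by -0.28. The disagreement of these probe sets on the HY_high arrays entered the choice of the family, so these values are a description with no test. Over the 12 arrays the log2 values of both probe sets had a Pearson correlation of -0.70, and the deviations from the group means had -0.70 too, a description over arrays that share numbers. On OT1 array 2, by contrast, both probe sets had their highest OT1 value.

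The last Bcl2l11 probe set, 99419_g_at, lay between 1 and 3.06 on all 12 arrays and did not pass the filter on dim probe sets, a geometric mean above 1.76. It was at its lowest value of 1 on OT1 arrays 2 and 3. Its geometric means were 1.44, 1.67 and 1.997 in OT1, HY_low and HY_high, all near the bottom of the scale, so no direction is read from it.

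**Figure D2:**
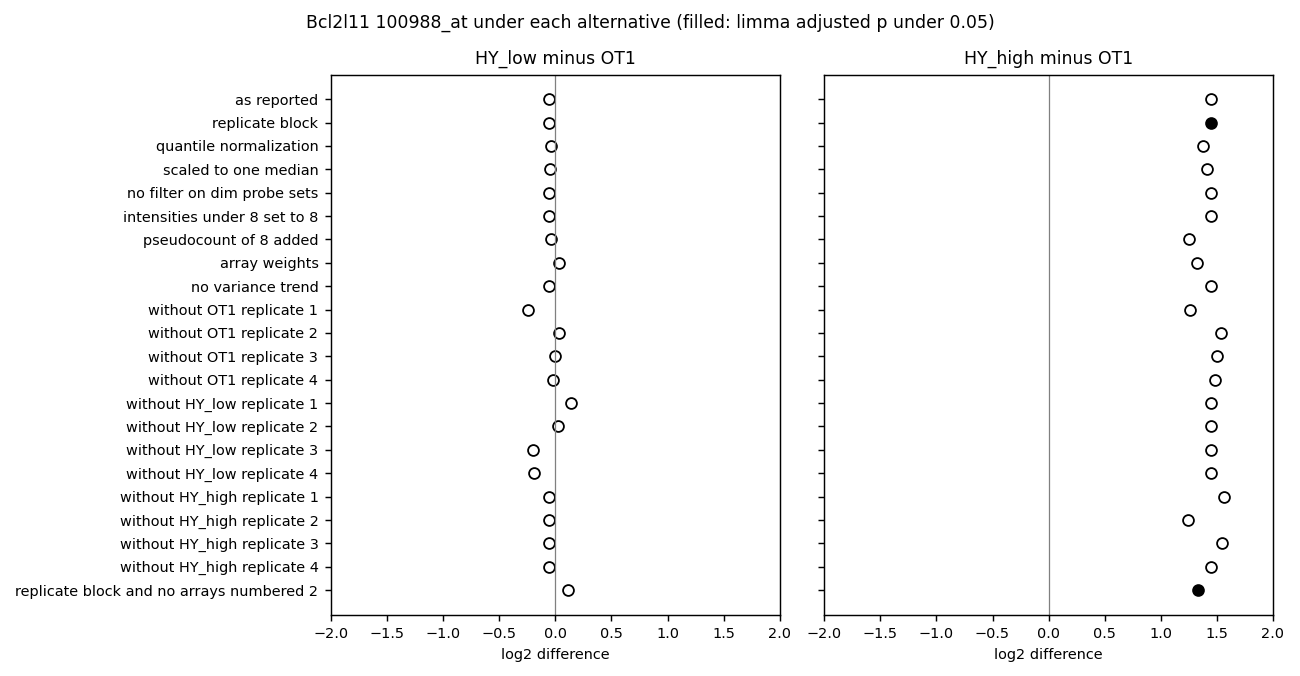
Log2 difference of Bcl2l11 100988_at under the reported fit and each alternative, with filled points for a limma adjusted p under 0.05. HY_high minus OT1 keeps between 1.24 and 1.56 and passes only with the replicate block, with or without the arrays numbered 2, while HY_low minus OT1 stays between -0.25 and 0.14.

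Among the survival genes, Bcl2 had 3 probe sets. On 98868_at OT1 arrays 1 to 4 were at 206, 92.1, 170 and 201. HY_low arrays were at 302, 207, 310 and 147, and HY_high arrays at 393, 334, 201 and 165. OT1 array 2 was the lowest of the 12 and HY_high array 1 the highest, and the groups overlapped. The geometric means were ordered as OT1 (159.6), HY_low (231) and HY_high (257), but neighbours in this order did not differ beyond their spread.

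HY_high minus OT1 on 98868_at was 0.69 ± 0.43 SE on the log2 scale (n = 4 per group, limma adjusted p = 0.9999, block adjusted p = 0.330), with a 95% interval of -0.22 to 1.60. It was above 0 within numbers 1, 2 and 3, at 0.93, 1.86 and 0.25, and below 0 within number 4, at -0.29. It moved to 0.42 without OT1 array 2, to 0.29 with array weights and to 0.30 with the block and no arrays numbered 2. HY_low minus OT1 was 0.53 ± 0.43 (limma adjusted p = 1), above 0 within 3 of 4 numbers, and 0.27 without OT1 array 2. HY_high minus HY_low was 0.16 ± 0.43.

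A second Bcl2 probe set, 98869_g_at, put the groups closer together. Its geometric means in OT1, HY_low and HY_high were 121, 112 and 151. OT1 array 1 was at 214 while OT1 arrays 2 to 4 were at 97.7 to 103, and in HY_low and HY_high array 1 was again the highest, at 171 and 247. HY_high minus OT1 was 0.32 ± 0.43 and HY_low minus OT1 -0.11 ± 0.43 (limma adjusted p = 0.9999 and 1). Over the 12 arrays it followed 98868_at, with a Pearson correlation of 0.69, or 0.76 for the deviations from the group means.

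The dimmest Bcl2 probe set, 98870_at, lay between 8.87 and 21.2 and followed neither, with correlations of -0.15 and -0.20. Array 4 was the highest in every group, at 21.2, 16.6 and 19.0. Its geometric means were 13.5, 11.2 and 14.5 in OT1, HY_low and HY_high, and its differences from OT1 were -0.27 ± 0.41 and 0.10 ± 0.41. The 3 Bcl2 probe sets thus gave HY_low minus OT1 on different sides of 0, and none of the differences passed.

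**Figure D3:**
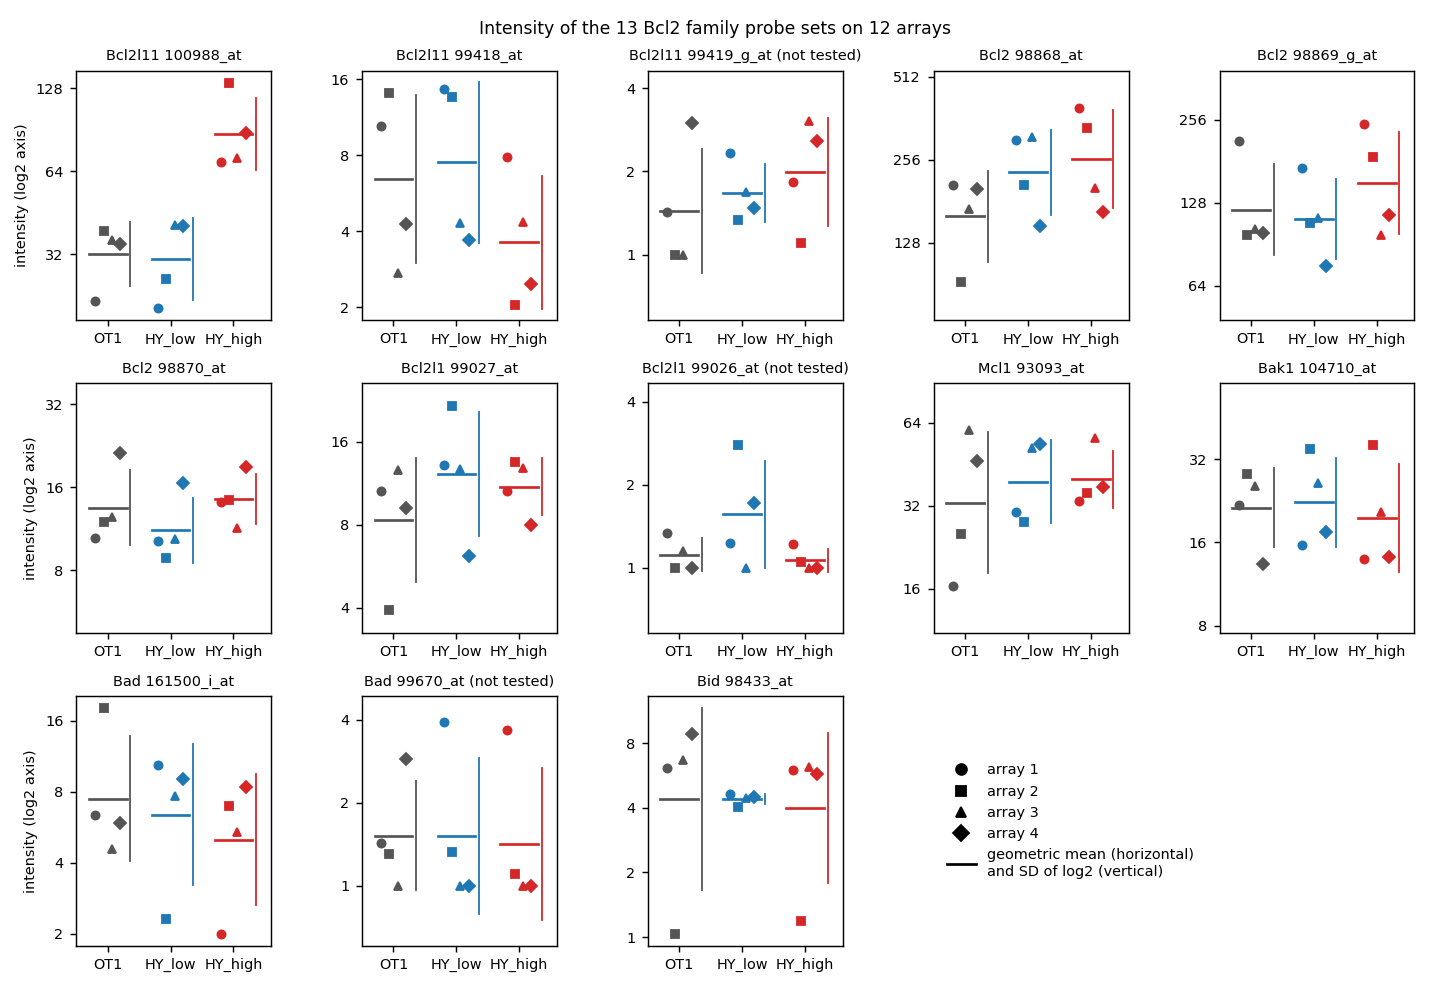
Intensity (log2 axis) of the 13 member probe sets on OT1, HY_low and HY_high arrays, each point an array with the symbol's shape for its number, with the geometric mean and the SD of log2 values (n = 4). HY_high stands clear of the other groups on Bcl2l11 100988_at, and the groups overlap on the other 12.

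Bcl2l1, which encodes Bcl-xL, had 2 probe sets of unlike intensity. Over the 12 arrays their geometric means were 10.4 for 99027_at, with 3 arrays below 8, and 1.23 for 99026_at. On 99027_at OT1 arrays 1 to 4 were at 10.6, 3.93, 12.7 and 9.20, HY_low arrays at 13.2, 21.6, 12.7 and 6.15, and HY_high arrays at 10.6, 13.5, 12.8 and 7.96. The groups overlapped, and the lowest and highest values both came from arrays numbered 2, in OT1 and HY_low. HY_low minus OT1 was 0.55 ± 0.49 SE (n = 4 per group, limma adjusted p = 1) and HY_high minus OT1 was 0.40 ± 0.49 (limma adjusted p = 0.9999). Within number 2 these were 2.46 and 1.78, and within the other numbers -0.58 to 0.32 and -0.21 to 0.02. The other probe set, 99026_at, did not pass the filter, with 1 to 2.79 over all arrays.

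Mcl1, the survival protein with a short half-life, had 1 probe set, 93093_at. OT1 arrays 1 to 4 were at 16.3, 25.4, 60.1 and 46.4, HY_low arrays at 30.3, 28.0, 51.9 and 53.3, and HY_high arrays at 33.3, 35.7, 56.5 and 37.5. In each group the arrays numbered 1 and 2 were lower than those numbered 3 and 4, and the groups overlapped. HY_low minus OT1 was 0.25 ± 0.46 SE and HY_high minus OT1 was 0.28 ± 0.46 (n = 4 per group, limma adjusted p = 1 and 0.9999), with 95% intervals of -0.71 to 1.22 and -0.68 to 1.25. HY_high minus HY_low was 0.03 ± 0.46.

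Bak1, the pore-forming member measured here, was at 21.8, 28.2, 25.5 and 13.4 on OT1 arrays 1 to 4. HY_low arrays were at 15.7, 34.8, 26.3 and 17.5, and HY_high arrays at 13.9, 36.2, 20.7 and 14.2. Array 2 was the highest in each group, and the 3 groups spanned nearly the same range. The geometric means were 21.4, 22.4 and 19.6 in OT1, HY_low and HY_high. The differences from OT1 were 0.06 ± 0.45 SE for HY_low and -0.13 ± 0.45 for HY_high (n = 4 per group, limma adjusted p = 1 and 0.9999), with a 95% interval of -1.07 to 0.82 for the latter.

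The BH3-only genes other than Bim were dim. Bad, whose protein binds Bcl2 and Bcl-xL when growth factor signals are low, was between 1.99 and 18.2 on 161500_i_at, with geometric means of 7.49, 6.38 and 5.01 in OT1, HY_low and HY_high. OT1 array 2 was the highest and HY_high array 1 the lowest. HY_low minus OT1 was -0.23 ± 0.61 SE and HY_high minus OT1 was -0.58 ± 0.61 (n = 4 per group, limma adjusted p = 1 and 0.9999). Its other probe set, 99670_at, did not pass the filter, with 1 to 3.93 over all arrays.

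Bid, which caspase-8 cleaves to link death receptors to mitochondria, was between 1.03 and 8.85 on 98433_at. OT1 array 2 and HY_high array 2 were at 1.03 and 1.19, where the other arrays were at 4.05 and above. The geometric means were 4.40, 4.40 and 3.99 in OT1, HY_low and HY_high. HY_low minus OT1 was -0.00184 ± 0.66 SE and HY_high minus OT1 was -0.14 ± 0.66 (n = 4 per group, limma adjusted p = 1 and 0.9999), differences smaller than their errors.

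Of the 13 member probe sets 10 passed the filter on dim values and were tested. In HY_low minus OT1 limma called 0 of the 10, against 0.0230% of all probe sets tested. With the block it called 0, against 0.0920%. In HY_high minus OT1 limma called 0 of the 10, against 0.173%, and with the block it called 1, Bcl2l11 100988_at, against 1.36%. At an unadjusted p under 0.05 in limma without the block there were 0 of the 10 in HY_low minus OT1 and 1 in HY_high minus OT1. The share of all probe sets at that threshold was not counted, so nothing is read from these counts. In HY_high minus HY_low, the contrast the family was chosen by, limma called 0 of the 10 against 0.0230%, and 1 with the block against 0.345%. The choice entered these last counts, which are a description.

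Groups without overlap were counted in the same way. In HY_high minus HY_low 1 of the 10, Bcl2l11 100988_at, was higher on every HY_high array, against 1.24% of all probe sets tested. The family was chosen by this probe set in this contrast, so the count is a description and no support. In HY_high minus OT1, which uses the same HY_high arrays, the same probe set was the 1 of 10, against 1.52%. In HY_low minus OT1 there were 0 against 0.886%. The median log2 difference of the 10 was 0.03 in HY_low minus OT1 and 0.19 in HY_high minus OT1, where the median of all probe sets tested was 0.01 and 0.02. The comparisons share arrays, so their values are set side by side and not correlated.

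**Figure D4:**
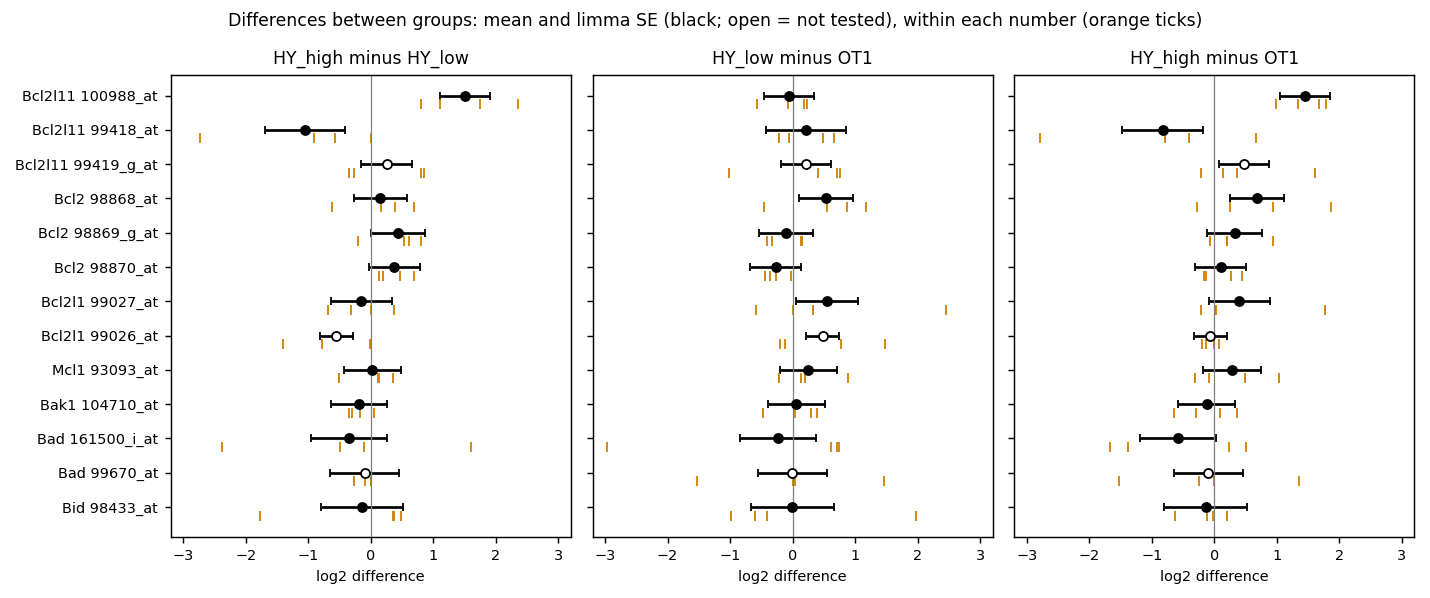
Log2 difference of each member probe set in the 3 comparisons, with the limma SE (bars), open points for probe sets the filter left out, and orange ticks for the differences within each number. Bcl2l11 100988_at has all 4 ticks above 0 in both comparisons of HY_high, and the ticks of 98868_at, Mcl1, Bad 161500_i_at and Bid lie on both sides of 0 in HY_high minus OT1.

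Patterns like that of Bcl2l11 100988_at were sought among 3596 tested probe sets with 1 symbol and a geometric mean of at least 8, by Pearson correlation of log2 values over the 12 arrays, as a description. The most alike were Cd9, a tetraspanin of the cell surface (r = 0.90), AU020206 (0.89), Ahnak, a very large scaffold protein (0.88), Ccdc50 (0.86) and Traf5, an adaptor of TNF receptors (0.83). Cd9 had geometric means of 12.2, 14.5 and 49.3 in OT1, HY_low and HY_high. The least alike were Limk1, a kinase of the actin cytoskeleton (r = -0.90), Npc2, a lysosomal cholesterol carrier (-0.84), Hdac7, a histone deacetylase expressed in thymocytes (-0.84), Tbxa2r, the thromboxane receptor (-0.83), and Tnnt1, a troponin (-0.80). Hdac7 had 55.5, 57.8 and 30. Deviations from the group means kept these signs, with r from 0.59 to 0.75 for the first 5 and from -0.89 to -0.54 for the others. These are the extremes of 3596 values, and the step at HY_high enters each of them.

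The genes around the family were taken from 4 lists, 64 genes in all, of which 45 had a probe set with their symbol alone and 40 were tested. By limma 0 of the 40 passed in HY_low minus OT1, with 1 at an unadjusted p under 0.05, and 0 passed in HY_high minus OT1, also with 1. With the replicate block 0 and 1 passed, where 0.0920% and 1.36% of all probe sets tested were called. Without the block the shares called were 0.0230% and 0.173%. For an unadjusted p under 0.05 the share of all probe sets was not counted, here or in the lists below. In HY_high minus HY_low 0 of the 40 passed with or without the block, with 2 at an unadjusted p under 0.05, Fasl and Dynll2. Dynll2, a dynein light chain, was named after its values were seen, with a log2 difference of 1.28. The light chain Dynll1 of the same list went the other way, at -0.40.

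Of the other Bcl2 family genes 7 of 18 were tested, and 0 passed in either comparison with OT1, with 0 at an unadjusted p under 0.05 in limma. The survival gene Bcl2a1 was not named from its probe sets, which read several of its copies. Bnip2, which encodes a protein that binds Bcl2, had geometric means in the 3 groups of 67.5, 82.4 and 112, and HY_high minus OT1 was 0.73 ± 0.54 SE (limma adjusted p = 0.9999, block adjusted p = 0.0946). Bnip3, a mitochondrial protein induced by low oxygen, was dim, at 4.04, 2.47 and 2.56 (log2 difference -0.66 ± 0.47, limma adjusted p = 0.9999).

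Of the apoptosome and the steps after it 11 of 16 genes were tested and 0 passed with limma, with 1 at an unadjusted p under 0.05 in HY_low minus OT1 and 0 in HY_high minus OT1. The 1 was Birc3, an inhibitor of apoptosis, at 7.55, 15 and 11.7 in the same order of groups, which was named after its values were seen (log2 difference 0.996 in HY_low, limma adjusted p = 1). Xiap, the inhibitor of caspase-3 and caspase-9, was at 2.90, 1.69 and 1.62 in OT1, HY_low and HY_high, near the bottom of the scale (HY_high minus OT1 -0.84 ± 0.43 SE, limma adjusted p = 0.9999). Endog, a mitochondrial nuclease, was at 3.30, 3.35 and 5.86 (0.83 ± 0.51, limma adjusted p = 0.9999).

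Of the death receptor pathway 11 of 13 genes were tested, and limma called 0, with 0 and 1 at an unadjusted p under 0.05 in HY_low and in HY_high minus OT1. Tnfrsf1b, the TNF receptor without a death domain, had 13.2 in OT1, 22.1 in HY_low and 34.0 in HY_high. HY_high minus OT1 was 1.36 ± 0.53 SE (limma adjusted p = 0.942, block adjusted p = 0.0265). Tnfrsf1b was the 1 gene of the 40 that passed with the block, where 1.36% of all probe sets tested passed. Fasl, the ligand of Fas, was dim, at 2.31, 1.63 and 4.57 (0.98 ± 0.54, limma adjusted p = 0.9999).

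Of the regulators of Bim and of the family 11 of 17 genes were tested, and limma called 0 in either comparison with OT1, with 0 at an unadjusted p under 0.05. Foxo4, a forkhead factor of the FoxO group, was at 19.1 in OT1, 10.2 in HY_low and 10.6 in HY_high (HY_high minus OT1 -0.85 ± 0.64 SE, limma adjusted p = 0.9999). Sgk1, a kinase that phosphorylates FoxO factors, was at 37.8, 34.4 and 23.6 (-0.68 ± 0.68, limma adjusted p = 0.9999). Foxo3, a FoxO factor named after its values were seen, was at 13.4, 17.3 and 17.9.

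**Figure D5:**
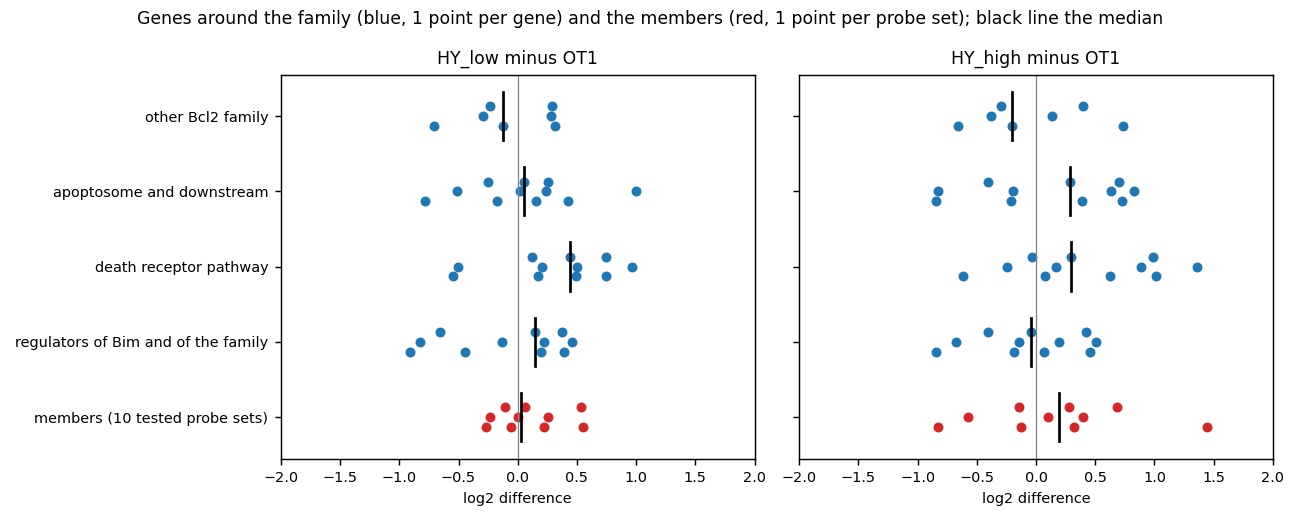
Log2 differences from OT1 of the 40 tested genes of the 4 lists (blue, 1 point per gene) and of the 10 tested member probe sets (red), with the median of each row as a black line. The list medians lie between -0.13 and 0.45 in HY_low minus OT1 and between -0.20 and 0.30 in HY_high minus OT1, and the red point farthest to the right at 1.45 is Bcl2l11 100988_at.

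Markers were read to describe the cells. Of 10 thymocyte and T cell genes 9 had a probe set, all 9 with a median above 8, and their summed intensity was 1200 to 2380 in OT1, 1400 to 2680 in HY_low and 972 to 2430 in HY_high. These sums overlapped, but 2 of the 9 were lower in HY_high than in OT1 by limma with the replicate block and not without it. With the block 1.36% of all probe sets tested were called in that comparison. Thy1, a surface protein of T cells, had geometric means of 541, 555 and 234 in the 3 groups (log2 difference from OT1 -1.21 ± 0.43 SE, adjusted p = 0.788, block adjusted p = 0.00564). Cd2, an adhesion receptor of T cells, had 197, 203 and 95.5 (-1.05 ± 0.55, adjusted p = 0.9999, block adjusted p = 0.0402). Of 8 double-positive thymocyte genes 7 had a probe set, 2 of them with a median above 8. Their sum, carried by Cd8b1 and Cd8a, was 516 to 1500 in OT1, 306 to 1820 in HY_low and 111 to 239 in HY_high. In this sum HY_high, where Bcl2l11 100988_at was highest, was below both other groups on every array. Cd8b1, the CD8 beta chain, went from a geometric mean of 693 in OT1 and 644 in HY_low to 4.52 in HY_high. It was the 1 gene of this list that limma called in HY_high minus OT1, with and without the block. In the same order of groups Cd8a was at 340, 339 and 157, Dntt at 10.1, 9.13 and 3.67 and Rag1 at 6.98, 7 and 2.58. Ptcra was at 2.1, 1.96 and 1.93, Rag2 at 1.18, 1.62 and 1.37, and Cd4 at 4.68 to 6.18 in all groups. The part of these changes in the Bcl2l11 difference was not tested. In such bulk samples fewer cells of a type and less RNA per cell cannot be told apart.

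The summed markers of other cell types overlapped between the groups. The sum over 12 of 12 macrophage and dendritic cell genes was 112 to 317 in OT1, 139 to 611 in HY_low and 149 to 565 in HY_high. It was carried by Ctss, the protease cathepsin S, at geometric means of 148, 234 and 296. Of the 10 tested genes of this list limma with the block called Ctss alone in HY_high minus OT1, against 1.36% of all probe sets tested. Ctss was higher in HY_high (log2 difference 1.004 ± 0.61 SE, limma block adjusted p = 0.0275, adjusted p = 0.9999 without the block). Ctss was the 1 gene of the list with a median above 8, and the others had no shared order of groups. In OT1, HY_low and HY_high Lyz2 was at 1.16, 4.57 and 1.97, Apoe at 1.27, 5.61 and 1.4 and Csf1r at 4.72, 6.28 and 3.73. Cd68 was at 1.77, 2.2 and 2.38, C1qa at 1.75, 2.01 and 2.36 and C1qb at 1.87, 2.36 and 4.05. H2-Aa was at 1.1, 1.4 and 2.5, H2-Ab1 at 1.48, 3.1 and 3.11 and Cd74 at 6.58, 3.16 and 6.33. Itgax was at 4.2, 4.05 and 3.16 and Adgre1 at 1.16, 1.42 and 1.42. For 3 of 6 NK cell genes the sum was 50.8 to 209, 11.6 to 116 and 95.6 to 325, carried by Klrd1 at geometric means of 100, 42.9 and 198. Klrk1 was dim, at 1.97, 1.91 and 5.51 (HY_high minus OT1 1.48 ± 0.54 SE, limma adjusted p = 0.835, block adjusted p = 0.223). Ncr1 was at 1 to 3.62 on all arrays, with geometric means of 1.86, 1.26 and 1.09. For 6 of 7 B cell genes the sum was 22.5 to 62.7, 23.5 to 46.0 and 33.8 to 190, with Blk at geometric means of 5.09, 4.17 and 14.6 and a highest value of 153, in HY_high. For 11 of 11 genes of thymic epithelium and fibroblasts it was 50.9 to 77.4, 57.6 to 89.7 and 52.4 to 75.8. Sums over 2 of 5 erythroid genes were 4.48 to 17.6 and over 4 of 4 granulocyte genes 6.89 to 12.6. Their part in the Bcl2l11 difference was not tested.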

How the data were processed

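Total RNA of 12 RTOC thymocyte samples was measured on Affymetrix arrays, 4 per group. The authors deposited 1 table of 12488 probe sets whose values are intensities on a linear scale, and the background correction, summary and scaling behind them are not given in the sources used here. Arrays were used as deposited. The 66 control probe sets were left out, values were put on a log2 scale, and the probe sets with the lowest 30% of mean log2 values were not tested, which kept 8695. Probe sets were named from the platform's annotation, with current symbols by gene ID, and those with several symbols were not named (10833 had 1 symbol, 396 several and 1193 none).

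All 12 arrays entered a single model in limma 3.58.1 under R 4.3.3, with the group as its factor, moderated variances that followed intensity, and 9 residual degrees of freedom. The two-sided p-values had Benjamini-Hochberg adjustment over all probe sets tested, at 0.05. Arrays of one number correlated in their deviations from the group means (0.341 to 0.593 in 12 pairs of arrays from different groups, against -0.401 to 0.163 in 36 pairs with different numbers), so the model was fitted again with a block for the number (residual degrees of freedom 6). That the numbers pair the arrays is read from the data and is not stated in the labels. The fit was tested on simulated data.

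The members, the lists of genes around them and the tests were chosen with earlier results of these data known. Every member probe set is described. From each list the genes past the threshold against OT1 were to be named, at most 4, or, where none passed, the 2 with the smallest p in HY_high minus OT1. Each listed gene was read by its brightest probe set. Alternatives were quantile normalization, scaling to one median, no filter, intensities under 8 set to 8, a pseudocount of 8, array weights, no variance trend, the block, and each array left out.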

Additional observations from a re-analysis of the deposited data

Results flagged for a closer look

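Of 39 groups of 4 arrays, 13 probe sets in 3 groups, 3 held an array far from the other 3 by Dixon's test on log2 values, where chance flags about 1 in 20. Bcl2 98869_g_at was at 213.66 on OT1 array 1, where the other OT1 arrays were at 97.7 to 103. Bad 99670_at was at 3.67 on HY_high array 1, with the others at 1 to 1.10, near the bottom of the scale. Bid 98433_at was at 1.19 on HY_high array 2, with the others at 5.73 to 6.18.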

How the results depend on the processing

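Bcl2l11 100988_at in HY_high minus OT1 kept its sign under 21 of 21 alternatives, from 1.24 to 1.56, and passed under 2, both with the replicate block (log2 differences 1.45 with all arrays and 1.33 without the arrays numbered 2, limma adjusted p = 0.00602 and 0.0263, the latter fit and the block with each array left out being chosen after the data were seen). With the block the members past the threshold numbered 1 in HY_high minus HY_low (1.51 for 100988_at) and 1 in HY_high minus OT1. The first is the contrast the family was chosen by, so its call is a description. The block changed no other call of a member. In the order HY_high minus HY_low, HY_low minus OT1 and HY_high minus OT1, all probe sets past the threshold numbered 2, 2 and 15 as reported, 30, 8 and 118 with the block, 13, 8 and 63 with the block without the arrays numbered 2 (1 member in the last), and 7, 4 and 64 with array weights. The first was 1 with one median, 0 without the filter, 4 with the floor at 8 and 6 with the pseudocount. The last was 9 without the filter and 8 with the floor. With 1 array left out they ran from 1 to 4, from 2 to 3 and from 6 to 17, with 0 members in each. The cause of these shifts was not tested.

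Differences that changed sign passed under no setting. In HY_high minus HY_low Mcl1 was -0.0384 with quantile normalization, -0.0235 with one median, -0.0295 with array weights and -0.0827 with the block without arrays numbered 2. Bid was 0.0213 with the pseudocount, 0.0871 with array weights and 0.40 without arrays numbered 2, Bcl2 98868_at -0.14 and -0.0230 in the last 2, and Bcl2l1 99027_at 0.0219 in the last. In HY_low minus OT1 Bid was 0.0107 with one median, Bcl2l11 100988_at 0.0299 and Bad 161500_i_at 0.24 with array weights, and 0.11 and 0.68 without arrays numbered 2, where Bcl2l1 99027_at was -0.0828 and Bak1 -0.0171. In HY_high minus OT1 Bcl2 98870_at was -0.0337 and Bad 161500_i_at 0.0111 with array weights, and Bcl2l1 99027_at -0.0609 without arrays numbered 2. With 1 array left out, HY_high minus HY_low ran from -0.14 to 0.17 for Mcl1, -0.48 to 0.12 for Bcl2l1 99027_at, -0.48 to 0.0234 for Bak1, -0.0623 to 0.37 for Bcl2 98868_at, -0.84 to 0.10 for Bad 161500_i_at and -0.35 to 0.44 for Bid. HY_low minus OT1 ran from -0.31 to 0.16 for Bcl2 98869_g_at, -0.0805 to 0.55 for Mcl1, -0.70 to 0.33 for Bid, -0.25 to 0.14 for Bcl2l11 100988_at, -0.195 to 0.60 for Bcl2l11 99418_at, -0.47 to 0.26 for Bad 161500_i_at and -0.16 to 0.23 for Bak1. HY_high minus OT1 ran from -0.0265 to 0.32 for Bcl2 98870_at, -0.0550 to 0.57 for Mcl1, -0.84 to 0.44 for Bid and -0.42 to 0.0393 for Bak1. Signal limits the dim probe sets: with intensities under 8 set to 8, 99419_g_at, 99026_at and 99670_at, and Bid in HY_high minus HY_low, have no value.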
